A study of Mus musculus with 31 samples.

Results

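Exon usage was compared between the cortex of R6/2 HD mice and the cortex of their wild-type (WT) controls, with 3 mice in each group out of the 31 mice of the series. Mice were chosen by their labels only, and every one of the 1743 splicing events in their files was used. R6/2 HD mice are of the strain B6CBA-Tg(HDexon1)62Gpb/3J, whose transgene expresses exon 1 of mutant human huntingtin from a human huntingtin promoter, and WT mice were non-transgenic controls. Mice were 3 months old and untreated by the study's methods, total RNA came from the cortex of 1 hemisphere, and the sex of each mouse is not given. The other 25 mice are knock-in animals and were not used here. WT values below are given in the order of mice 3, 4 and 6, and HD values in the order of mice 860, 868 and 869.

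The assay, RASL-seq, ligates pairs of DNA probes that lie side by side on a spliced RNA, selects them on oligo(dT) beads and counts the ligated products by sequencing. A cassette exon is read at a short junction, which leaves the exon out, and at a long junction, which keeps it. In the other types of event, the short and long junctions differ by the splice site or by which exon is used. Below, skipping and inclusion junction stand for short and long in every type. Exclusion is the share of an event's counts, in %, that came from its short junction. Of the events, 1678 were cassette exons, 31 alternative 3' splice sites, 20 alternative 5' splice sites and 14 mutually exclusive exons, in 1431 gene symbols. Counts per mouse summed to between 2171709 and 4337557, and no junction in the deposited tables had fewer than 4 counts in any mouse. Copies made by PCR are counted, since no molecular identifiers are stated. No event had the symbol Htt, so the genotype labels had no direct check.

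Alternative exons are spliced in or out by proteins that bind the RNA near them, and neurons use more of them than most cells, in channels, synaptic proteins and the cytoskeleton. In Huntington's disease an expanded polyglutamine tract in huntingtin damages first the striatum and then the cortex. Exon 1 holds that tract, and mice of the R6/2 line fall ill within weeks. A change of exclusion can come from more of the skipping junction, less of the inclusion junction, or both, and each was therefore also tested alone.

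The exons below are those of the neuronal receptor, channel, cytoskeleton, endosome and myelin events that the later paragraphs turn on. Each is printed 5' to 3' on the transcript strand of GRCm38, with the exon in capitals and 20 intron bases on either side in lower case. They were matched to the events by gene symbol, chromosome and the distance between the flanking exons.
Grin1, 63-base exon, chr2:25311343-25311405, minus strand: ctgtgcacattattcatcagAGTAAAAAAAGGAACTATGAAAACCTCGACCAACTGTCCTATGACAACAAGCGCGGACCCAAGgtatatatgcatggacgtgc
Grin1, 111-base exon, chr2:25294438-25294548, minus strand: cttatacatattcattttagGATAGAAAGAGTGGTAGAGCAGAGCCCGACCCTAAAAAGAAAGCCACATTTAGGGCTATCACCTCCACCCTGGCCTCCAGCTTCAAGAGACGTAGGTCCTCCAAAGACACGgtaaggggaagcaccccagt
Kcnt1, 42-base exon, chr2:25882196-25882237, plus strand: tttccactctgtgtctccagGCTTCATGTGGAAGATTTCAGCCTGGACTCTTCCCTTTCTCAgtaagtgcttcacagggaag
Spna2 (Sptan1), 51-base exon, chr2:29968776-29968826, plus strand: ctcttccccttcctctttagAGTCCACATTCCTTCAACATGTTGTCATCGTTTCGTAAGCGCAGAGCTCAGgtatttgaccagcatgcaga
Sorbs2, 45-base exon, chr8:45770546-45770590, plus strand: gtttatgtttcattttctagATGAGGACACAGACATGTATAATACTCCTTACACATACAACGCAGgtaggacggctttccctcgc
Gripap1, 27-base exon, chrX:7794260-7794286, plus strand: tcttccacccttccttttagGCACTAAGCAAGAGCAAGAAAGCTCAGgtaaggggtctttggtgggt
Mag, 45-base exon, chr7:30900352-30900396, minus strand: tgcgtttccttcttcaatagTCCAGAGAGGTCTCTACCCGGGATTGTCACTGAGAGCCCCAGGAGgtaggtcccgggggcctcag
All of these lie in coding sequence by GENCODE, each is a multiple of 3 bases long, and each is bounded by AG and GT.

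Exon exclusion passed the test (limma, Benjamini-Hochberg adjusted p under 0.05 over all events) in 28.6% of the 1743 events, with higher exclusion in HD mice in 21.1% and lower exclusion in 7.46%. The 3 HD mice lay outside the range of the 3 WT mice in 41.5% of events. The whole panel was shifted, with a median change of 0.18 in the log2 ratio of short to long counts, and centring each mouse on its median event left 285 events higher and 196 lower, so that 59.3% of the called events were higher in place of 73.9%. Called events differed by a median of 7.83 percentage points, and 57 of them by 20 points or more, 40 upwards and 17 downwards. They lay in 454 genes. Cassette exons held 360 of the higher and 122 of the lower events. Of the 14 mutually exclusive events 6 were called, 1 higher and 5 lower.

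Both junctions took part. The short junction alone was higher in HD in 27.8% of the 1696 events tested and lower in 9.73% (37.6% called), and the long junction was higher in 19.0% of 1710 and lower in 17.6% (36.6% called). Of the 361 events with higher exclusion whose junctions could both be tested, the skipping junction rose in 246 and the inclusion junction fell in 171, with both in 69. The skipping junction rose alone in 149 and the inclusion junction fell alone in 92. Of the 130 events with lower exclusion, the inclusion junction rose in 87 and the skipping junction fell in 58, with both in 20. These counts use libraries scaled to their summed counts. With each mouse centred on its median junction the short junction was called higher in 275 events and lower in 306, so its direction over the panel depends on the scaling.

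**Figure D1:**
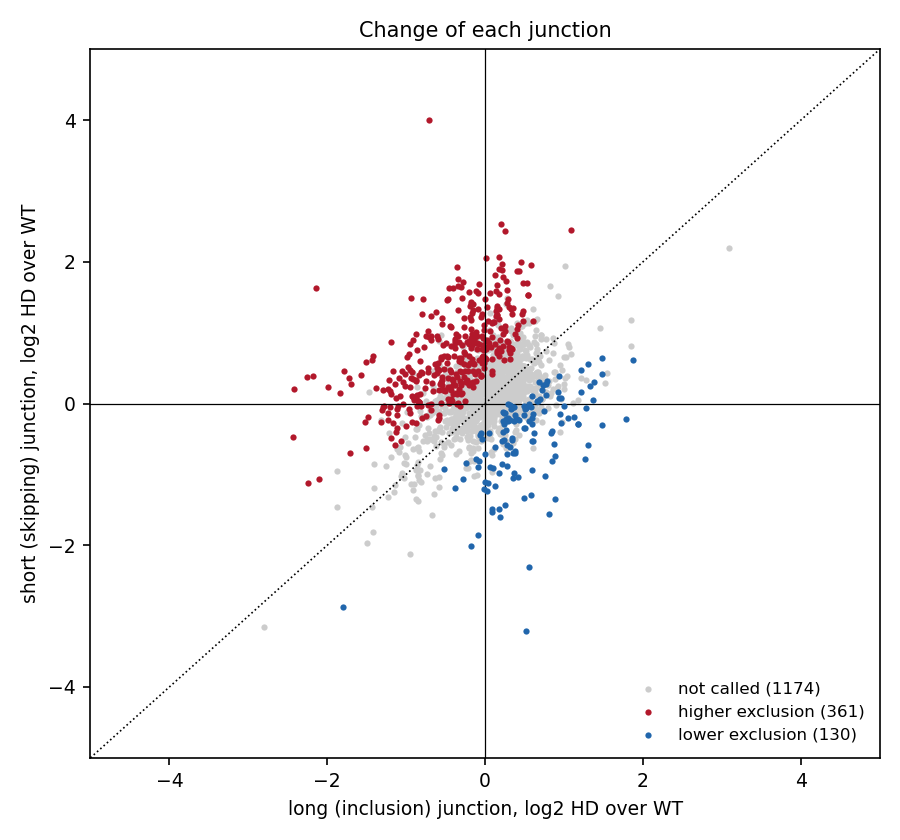
Change of the short (skipping) junction against the change of the long (inclusion) junction, each as log2 of HD over WT, 1 point per event; the dotted line marks equal change. The 361 red points with higher exclusion lie above the line and the 130 blue points with lower exclusion below it, and both clouds spread along both axes.

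Genes were sorted into 12 lists by function, from their symbols. The lists hold 816 of the events, 49 of them in more than 1 list, and 927 events are in no list. Among the latter, 183 were higher and 68 lower (27.1% called), close to the panel as a whole. Of the 10 larger lists, shares called above that of all events were found in those of splicing and RNA-binding genes (42.5%), cytoskeleton and motor genes (37.9%), channels, receptors and transporters (35.6%) and, barely, endocytosis and vesicle traffic (28.8%). The lists of huntingtin partners (3 of 6 events) and of m6A and TDP-43 (2 of 5) are too short for a share. The share was lowest in adhesion, guidance and matrix genes (21.5%), and of the 10 larger lists this was the only one with more events lower than higher, 9 against 8. After centring, small GTPases and vesicle traffic also had more lower than higher. These are descriptions, and no test between lists was run. Most events named below were chosen for a large difference and for groups that do not overlap, so their separation is a description too.

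**Figure D2:**
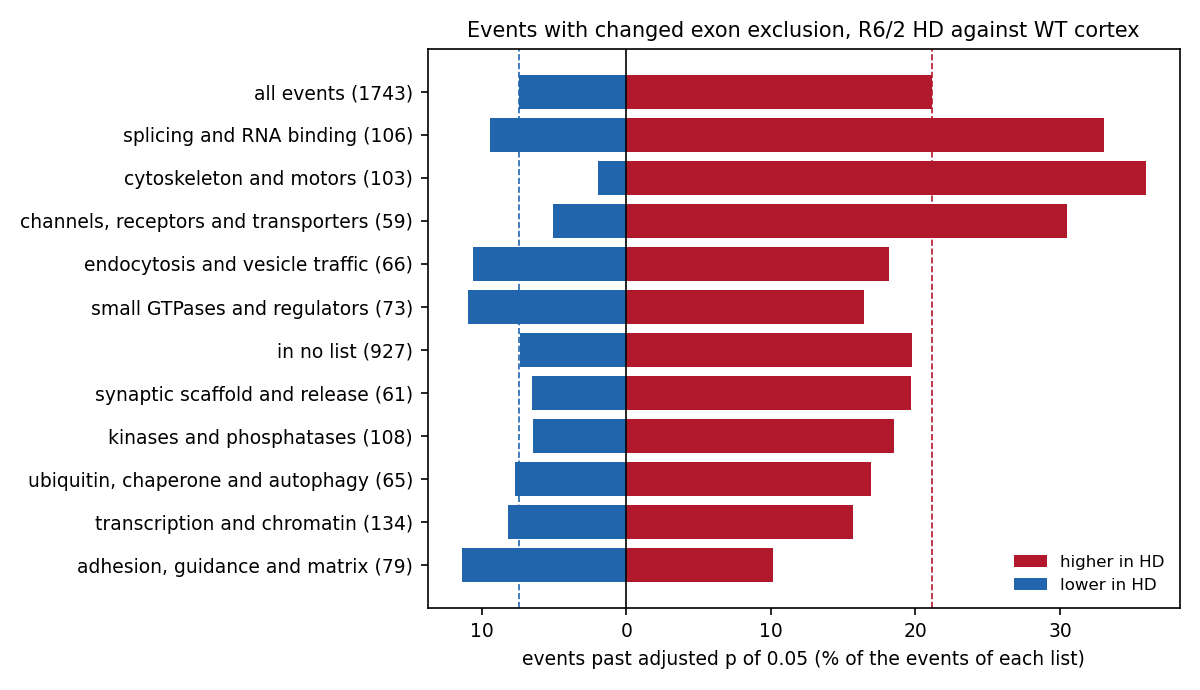
Share of the events of each gene list whose exclusion was called higher (red, to the right) or lower (blue, to the left) in HD mice, in % of the events of the list, with the number of events in parentheses; dashed lines mark the shares over all 1743 events. Cytoskeleton and motor genes have 37 events higher and 2 lower, and adhesion genes 8 higher and 9 lower.

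Splicing factors and other RNA-binding proteins had 106 events, of which 35 were higher and 10 lower, with a median log2 change of 0.22 beside 0.18 over all events. Under centring, 29 were higher and 15 lower, and without WT mouse 6, 29 and 6. Hnrpdl (Hnrnpdl), which binds RNA in the nucleus and acts on splicing, had a coding exon of 171 bases skipped in 0.948, 1.39 and 0.861% of counts in WT mice and in 23.9, 19.4 and 22.5% in HD mice. This was the largest log2 change among the named events, 4.72 ± 0.18 (SE). Its 105-base exon, in the untranslated part of the transcript, went the other way, from 88.4, 88.5 and 88.3% to 59.3, 71.0 and 64.1% (log2 change of -2.04 ± 0.15). The groups did not overlap in either exon.
Pcbp2, a poly(C)-binding protein, had a 39-base exon skipped in 10.5, 9.47 and 13.2% of WT and 29.1, 28.8 and 32.0% of HD counts (log2 change 1.79 ± 0.17, adjusted p = 1.32e-05), and its 93-base exon went from 59.3% ± 2.92 to 54.5% ± 2.45 (SD, n = 3), which did not pass (adjusted p = 0.0803 by limma) but did as a fall after centring (adjusted p = 0.0319) and without HD mouse 869 (0.0483). Rsrc1, a protein rich in arginine and serine that takes part in splicing, had a 174-base exon at 6.46, 6.70 and 5.92% in WT and 2.35, 0.228 and 0.221% in HD mice. Its 153-base exon was at 19.9, 21 and 21.6% in WT and 31.7, 24.4 and 24.0% in HD (log2 change 0.46 ± 0.14, adjusted p = 0.0245). The latter call was lost after centring (adjusted p = 0.14) and in 4 of the 6 fits that left out a mouse, and without HD mouse 860 the change was 0.28 (adjusted p = 0.0611 by limma).

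Events of 3 other genes of this list were chosen after their values were seen and are given as values only. Rbfox2 and the muscleblind gene Mbnl2 encode regulators of exon choice in neurons. Rbfox2 had exclusion of 18.2% ± 1.67 in WT and 32.4% ± 4.75 in HD at one exon, 55.0% ± 1.94 and 85.5% ± 3.48 at another that had only 23 to 46 counts a mouse, and 7.52% ± 1.67 and 7.86% ± 0.979 at the third, where it did not pass (SD, n = 3). Mbnl2 had 1 exon at 29.5% ± 2.80 in WT and 42.4% ± 2.71 in HD, and another at 87% ± 1.10 and 81.9% ± 2.48. Its other exon, at 22% ± 1.06 and 18.8% ± 2.10, did not pass. U2af1, a subunit of the factor that recognises the 3' splice site, went from 35.7% ± 1.14 to 42.9% ± 2.39 and is listed as 2 events with identical counts.

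Cytoskeleton and motor genes had 103 events in 67 genes, with 37 higher and only 2 lower. These calls lay in 29 genes, beside 454 of 1431 over the panel, and exons of the same gene were counted separately. The median log2 change was 0.40 beside 0.18 over all events. After centring, 30 were higher and 6 lower, and fits that left out a mouse gave 31 to 34 higher and 2 to 3 lower. Fmnl1, a formin that nucleates actin filaments, had a 99-base exon skipped in 30.1, 33.7 and 26.2% of WT counts and in 56.2, 83.9 and 96.7% of HD counts. It was the largest rise in points among the named events (48.9), and the HD mice were spread more widely (SD of 20.7) than the WT mice (3.77).
Alpha-II spectrin, Spna2 (Sptan1), a rod of the membrane skeleton, had its 51-base exon at 51.0, 49.4 and 49.4% in WT and 77.7, 79.0 and 84.1% in HD mice (log2 change 2.03 ± 0.21, adjusted p = 2.78e-05). Its 60-base exon rose less, from 12% ± 0.772 to 16.6% ± 1.78 (SD, n = 3), and was not called without the variance trend (adjusted p = 0.0587 by limma). Sorbs2, an adaptor that ties actin to membrane signalling, had 6 events with the lowest mean of 2.89% and the highest of 58.7% in WT mice.
Of these, 4 rose, each by at least 11.2 points. The 45-base exon was the largest of them, at 58.1, 52.9 and 53.8% in WT and 76.3, 75.5 and 73.2% in HD mice, with no overlap. The remaining Sorbs2 events were at 2.89% ± 0.201 and 5.69% ± 2.12 (adjusted p = 0.0508) and at 58.7% ± 3.55 and 52.4% ± 3.41 (adjusted p = 0.0989, both by limma). The first passed as a rise with a mean of at least 50 counts required (0.0493), in the quasi-binomial model (0.0483) and without HD mouse 869 (0.0168), and the second as a fall after centring (0.0276) and without HD mouse 860 (0.0457). Mtap7d2 (Map7d2), a microtubule-associated protein, was at 2.18, 2.23 and 3.00% in WT and 6.21, 5.95 and 7.11% in HD mice. The 2 events that fell were in mKIAA0858 (Lmo7) and in the dynein intermediate chain Dync1i1.

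Ion channels, neurotransmitter receptors and transporters had 59 events, 18 higher and 3 lower, with a median log2 change of 0.29. After centring, 16 were higher and 7 lower, and without HD mouse 869, 15 and 1. Without Tmem164, which a name pattern took in although it is not of the TMEM16 channel family, 17 were higher and 3 lower. Grin1 encodes the subunit that every NMDA-type glutamate receptor needs, and its 63-base exon is the N1 cassette of the extracellular domain. That exon was skipped in 31.9, 33.5 and 27.3% of WT and 70.7, 59.2 and 60.2% of HD counts, on 7746 to 14846 counts a mouse (log2 change 1.97 ± 0.17, adjusted p = 7.11e-06 by limma). The 111-base exon, the C1 cassette of the intracellular tail, was at 30.8, 36.7 and 34.8% in WT and 47.4, 47.8 and 48.2% in HD mice. Both exons of this receptor were thus skipped more in every HD mouse than in any WT mouse.
Kcnt1, a potassium channel opened by sodium, had its 42-base exon at 37.7, 40.1 and 35.8% in WT and 65.6, 65.2 and 64.3% in HD mice (log2 change 1.61 ± 0.13). Grik1, a kainate receptor subunit chosen after its values were seen, was at 18.3% ± 1.65 and 32.1% ± 5.84 at one exon and, on only 30 to 85 counts a mouse, at 24.3% ± 15.6 and 64.9% ± 2.40 at another. In the other direction, Atp2b3, a pump that drives calcium out of the cell, had a 154-base exon at 46.2, 41.2 and 48.2% in WT and 17.9, 23.1 and 26.0% in HD mice.

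Synaptic scaffold and release genes had 61 events, 12 higher and 4 lower (26.2% called), with a median log2 change of 0.175, both close to the panel. After centring, 10 were higher and 7 lower. The scaffold gene mKIAA1232 (Dlg3), which anchors receptors at the synapse, had a 54-base exon at 61.8, 60.9 and 63.2% in WT and 86, 81.5 and 85.7% in HD mice. Sytl2, a synaptotagmin-like protein of vesicle docking, had a 120-base exon at 19.0, 18 and 21.6% in WT and 44.4, 36.9 and 36.8% in HD mice, and 2 other exons that did not pass, at 17.2% ± 5.31 and 23.5% ± 8.30 and at 95.4% ± 1.17 and 94.7% ± 0.271. Magi1, another scaffold, chosen after its values were seen, was at 41.0% ± 5.75 and 79.2% ± 2.03 on 43 to 122 counts a mouse.

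Neurexins are presynaptic adhesion proteins whose choice of partner depends on small alternative inserts, and they are in the synaptic and the adhesion list alike. Nrxn2 and Nrxn3, described after their values were seen, each had an event in an exon of 90 bases, the length of the insert known as splice site 4. That of Nrxn3, which had the larger change on the log2 scale, is shown in capitals with 20 intron bases on either side, on GRCm38.
Nrxn3, chr12:90199147-90199236, plus strand: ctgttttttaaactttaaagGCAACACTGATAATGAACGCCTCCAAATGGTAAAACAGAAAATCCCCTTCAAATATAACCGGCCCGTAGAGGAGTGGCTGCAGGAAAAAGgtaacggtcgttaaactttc
In Nrxn2 exclusion fell from 29.9, 27.8 and 35.2% to 15.2, 21.3 and 17.3% (log2 change of -1.04 ± 0.18), and in Nrxn3 from 23.7, 17.3 and 20.1% to 7.78, 8.31 and 6.26% (log2 change of -1.66 ± 0.19). The groups did not overlap in either gene, and both calls held in all 6 fits that left out a mouse. Other exons of these genes did not follow. A 27-base exon of Nrxn3 rose from 80.0% ± 1.51 to 88.0% ± 1.76 (SD, n = 3). The remaining events of Nrxn2, 2 of them with identical counts, were at 46.2% ± 1.77 and 49.4% ± 2.37 and at 41.5% ± 1.95 and 38.3% ± 12.2, where none passed (limma).

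Adhesion, guidance and matrix genes had 79 events, 8 higher and 9 lower, with 5 higher and 11 lower after centring and 5 to 9 higher and 7 to 8 lower when a mouse was left out. More were higher than lower without WT mouse 3 or WT mouse 4 (9 and 7 each), and without HD mouse 868 there were 5 and 8. Mag, the myelin-associated glycoprotein of oligodendrocytes, had its 45-base exon skipped in 35.2, 42.9 and 42.2% of WT and 20.8, 17.8 and 13.7% of HD counts. The exon is known from the mRNA of the small MAG isoform. Gde5 (Gpcpd1), a lipid-metabolic enzyme that the name pattern of the glypicans took in, was at 38.4, 39.6 and 38.6% in WT and 53.2, 55.1 and 53.7% in HD mice. Without its events, listed under Gde5 and Gpcpd1, and those of Col4a3bp and Sdccag3, likewise taken in by their names, 7 events were higher and 9 lower.

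Kinases, phosphatases and their anchors had 108 events, 20 higher and 7 lower (25% called). Without Erbb2ip, Fgfr1op, Fgfr1op2 and Cdkn2aip, taken in by their names, 18 of 104 were higher and 7 lower. After centring the whole list, 13 were higher and 9 lower. Without WT mouse 6 there were 12 and 4, without HD mouse 868, 16 and 4, and without HD mouse 869, 14 and 3. Stk38, a kinase of the NDR family, had a 124-base exon at 56.2, 45.9 and 43.8% in WT and 67.2, 77.5 and 73.3% in HD mice, while its other exon was at 99.6% ± 0.163 and 99.6% ± 0.0469. Camk2g and Camk2d encode subunits of the calcium- and calmodulin-dependent kinase of synapses. Camk2g rose at all 3 of its events, the largest from 51.7, 59.8 and 60.8% to 75.5, 74.0 and 71.9%, and the others from 4.83% ± 1.21 to 8.09% ± 1.32 and from 3.07% ± 0.436 to 4.44% ± 0.724. The last of these rises, in a 33-base exon, was lost in 4 of the 6 fits that left out a mouse and after centring (adjusted p = 0.111). The rise to 8.09% was lost without the variance trend (0.0584) and when the percentage itself was fitted (0.0788).
Camk2d was mixed. Its mutually exclusive event fell from 74.0, 75.7 and 80.5% to 66.2, 63.5 and 64.4%, 1 cassette fell from 94.1% ± 1.17 to 88.4% ± 1.34, and 1 rose from 0.531% ± 0.0501 to 2.10% ± 0.594, which did not pass when the percentage itself was fitted (adjusted p = 0.0811 by limma). The others were at 1.67% ± 0.671 and 2.36% ± 0.884 and at 83.0% ± 1.24 and 80.6% ± 3.00 and did not pass. The fall of the mutually exclusive event was lost without WT mouse 6 (adjusted p = 0.0658) and without HD mouse 868 (0.0672) or 869 (0.0639).

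Small GTPases and their regulators had 73 events, 12 higher and 8 lower (27.4% called, beside 28.6% of all events), with a median log2 change of 0.08, and 12 higher and 13 lower after centring. The lower count was 6 without HD mouse 869, 5 without WT mouse 3 or HD mouse 868, 4 without WT mouse 6 or HD mouse 860 and 3 without WT mouse 4, with 10 to 13 higher. Gripap1, an effector of endosomal RAB4, rose in both of its exons. The 27-base exon was at 10.6, 10.3 and 9.82% in WT and 32.6, 30.2 and 31.6% in HD mice (log2 change 2.00 ± 0.10, adjusted p = 4.79e-08 by limma), on 4003 to 8357 counts a mouse, and the 48-base exon at 27.3, 28.1 and 29.2% and at 45.2, 44.9 and 48.5%. Within each group these mice differed by a few points only. Tbc1d4, which switches RAB proteins off, was at 49.6% ± 6.88 and 70.1% ± 7.70, and Rab42 at 41.7% ± 4.85 and 23.5% ± 8.05 (SD, n = 3). Both had few counts, and both calls were lost without WT mouse 4, WT mouse 6 or HD mouse 860, with adjusted p-values between 0.0562 and 0.118.

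Endocytosis and vesicle-traffic genes had 66 events, 12 higher and 7 lower, with a median log2 change of 0.03 and 9 higher and 13 lower after centring. The lower count was 1 without WT mouse 6, 2 without HD mouse 860 and 4 without HD mouse 868. Vps39, a subunit of the complex that tethers late endosomes to lysosomes, was at 63.2, 56.5 and 66.2% in WT and 81.8, 84.9 and 93.4% in HD mice. Snx16, a sorting nexin of endosomes, had a 120-base exon at 10.2, 15.8 and 12.4% in WT and 30.1, 32.4 and 32.1% in HD mice. Ubiquitin, chaperone and autophagy genes had 65 events, 11 higher and 5 lower, and 10 and 8 after centring. The share called, 24.6%, was below the 28.6% of all events. Rnf112 rose from 16.3, 19.9 and 17.7% to 42.0, 35.3 and 35.2%, and the ubiquitin ligase Trim33 from 12.4, 14.4 and 12.3% to 21.6, 26.5 and 27.5%. Rnf167, a ligase of endosomes and lysosomes, fell from 76.7, 78.5 and 83.7% to 65.5, 66.4 and 63.0%.

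Transcription and chromatin genes had 134 events, 21 higher and 11 lower (23.9% called, and the same counts without Fam19a2, taken in by its name), and 15 in each direction after centring. Mlx, a partner of glucose-sensing transcription factors, was at 20.9, 17.9 and 14.5% in WT and 57.4, 48.9 and 43.0% in HD mice, on 117 to 458 counts. Taf1b, of the factor that starts transcription of ribosomal RNA genes, was at 40.8, 39.2 and 40.0% in WT and 64.6, 66.5 and 56.0% in HD mice. Aof2 (Kdm1a), a histone demethylase, had a 60-base exon at 27.6, 28.3 and 30.3% in WT and 46.6, 51.6 and 49.4% in HD mice. These events were picked as the largest of their list.

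Among genes whose proteins are known to bind huntingtin or its partners, 6 events were tested and 3 were higher. Ahi1, which binds the huntingtin-associated protein HAP1, had a 256-base exon at 31.7, 35.4 and 29.1% in WT and 69.5, 70.1 and 68.8% in HD mice (log2 change 2.27 ± 0.13, adjusted p = 1.45e-07 by limma). Cbs, an enzyme of sulfur amino acid metabolism, had a 42-base exon at 50.2, 46.5 and 51.2% in WT and 68.7, 70.2 and 68.4% in HD mice. Kalrn, an exchange factor bound by HAP1, was at 66.3% ± 0.122 and 69.7% ± 0.232 (adjusted p = 0.0644), and it passed when the percentage itself was fitted (adjusted p = 0.00483 by limma). Ube2k, a ubiquitin-conjugating enzyme, was at 2.58% ± 0.240 and 2.59% ± 0.190.

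The study was concerned with TDP-43, a nuclear protein that binds UG-rich RNA, and with the m6A mark on RNA. Of 5 events in genes of these pathways or with exons known to depend on TDP-43 in mouse brain, 1 was higher and 1 lower. The 3' splice sites of both hold TG repeats, while those of Ythdf3 and Ythdc1, also in this list, hold none. A part of TDP-43 in these changes was not tested. The sites of the called exons are shown with 20 intron bases in lower case and the first 3 exon bases in capitals, on GRCm38.
Sort1, 99-base exon, chr3:108355472-108355570, plus strand: gtgtgtgtatgattgcacagGAC
Eif4h, 60-base exon, chr5:134624441-134624500, minus strand: ttgtgtgtgtgtatcctcagGAA
Exclusion of the exon of Sort1, a sorting receptor, rose from 95.6, 94.6 and 94.8% to 97.6, 97.2 and 97.6% (log2 change 1.02 ± 0.14, adjusted p = 0.000149 by limma). That of Eif4h, a translation initiation factor, fell from 77.8, 75.5 and 75% to 70.9, 69.1 and 69.8% (log2 change of -0.46 ± 0.10), a call that was lost without the variance trend (adjusted p = 0.0714). Ythdf3 and Ythdc1, readers of m6A, were at 17.4% ± 1.34 and 13.5% ± 1.76 and at 40.7% ± 5.10 and 40.6% ± 4.24, and Dnajc5 at 99.9% in both groups. These 3 did not pass, though Ythdf3 passed as a fall after centring (log2 change of -0.58, adjusted p = 0.0349), which made 1 higher and 2 lower.

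Over all cassette exons, 1377 of 1678 were matched to a single annotated exon, so that features the comparison did not use could be set beside it. TGTGTG, searched on the transcript strand within 200 intron bases on either side, was present for 31.3% of the 307 exons with higher exclusion, 31.6% of the 98 with lower exclusion and 30.5% of the 972 not called, beside 30.7% of all matched exons. TGACT within the exon was present in 8.14%, 17.3% and 10.9%, beside 10.7% of all. A match to these letters is a description and not a binding site. Shares of exons with a length divisible by 3 were 68.7%, 68.4% and 66.5%, and shares in coding sequence 88.6%, 83.7% and 87.1%. The upstream intron had a median of 1609 bases for exons with higher exclusion, 3366 for those with lower exclusion and 2533 for those not called, and the downstream intron 1410, 2868 and 2519. Exons share genes and introns, so these are descriptions without a test.

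**Figure D3:**
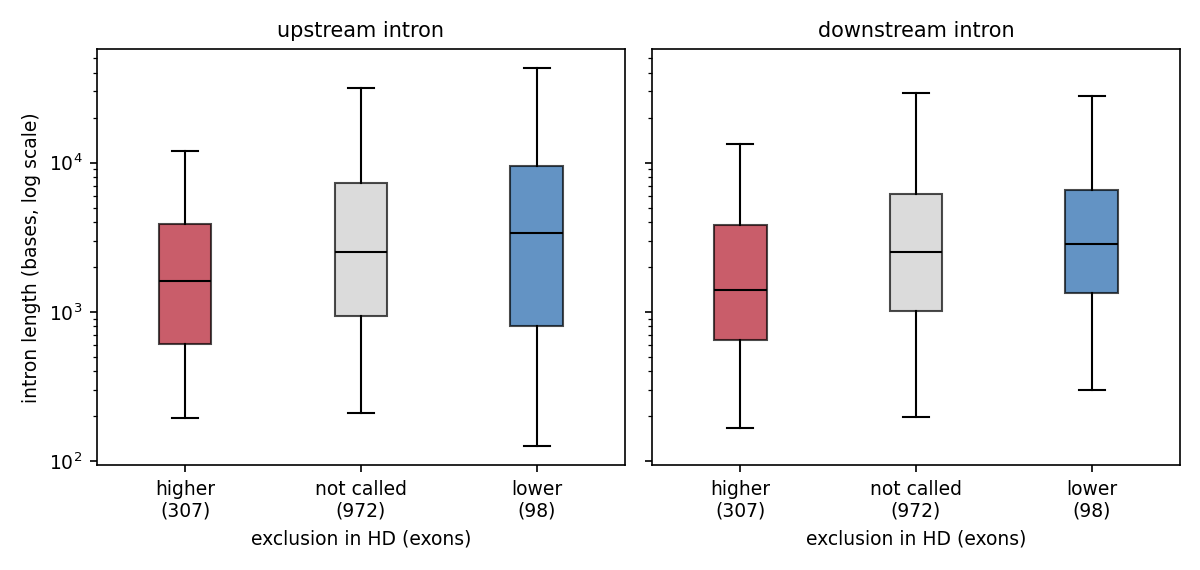
Length of the intron upstream (left) and downstream (right) of matched cassette exons, in bases on a log scale, by whether exclusion was called higher, not called or called lower in HD mice; boxes give quartiles and median, whiskers the 5th and 95th percentiles, numbers in parentheses the exons. The medians of exons with higher exclusion (1609 and 1410 bases) are the lowest in both panels.

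The largest falls and log2 changes outside the lists were in genes of varied function. BC068281 fell from 57.7, 58.3 and 62% to 12.7, 17.4 and 41.8%, with HD mouse 869 apart from the others. Ccar1, a transcriptional coactivator, fell from 60.4, 72.4 and 54.2% to 27.1, 38.2 and 32.4%, on 87 to 309 counts a mouse. Ankrd15 (Kank1), a regulator of actin, was at 37.8% ± 11 and 11.6% ± 4.59, Sp100, of nuclear bodies, at 83.8% ± 1.42 and 58.1% ± 13.1, and Tmem194b (Nemp2), of the nuclear envelope, at 84.3% ± 6.25 and 59.9% ± 4.71 (SD, n = 3).
All 5 passed, though Sp100 did not when the percentage itself was fitted (adjusted p = 0.0579 by limma). Atpbd4 (Dph6), of diphthamide synthesis, was at 34.9, 29.0 and 30.2% in WT and 13.8, 12.6 and 1.00% in HD mice. Its log2 change was -2.86 ± 0.76, and without HD mouse 869, the lowest, -1.58 (adjusted p = 0.000117 by limma), and the call was lost without the variance trend (0.0813). For 8030451F13Rik (Mybpc1) it was 2.63 ± 0.35, from 75.1, 78.5 and 76.8% to 97.0, 93.3 and 95.4%.

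**Figure D4:**
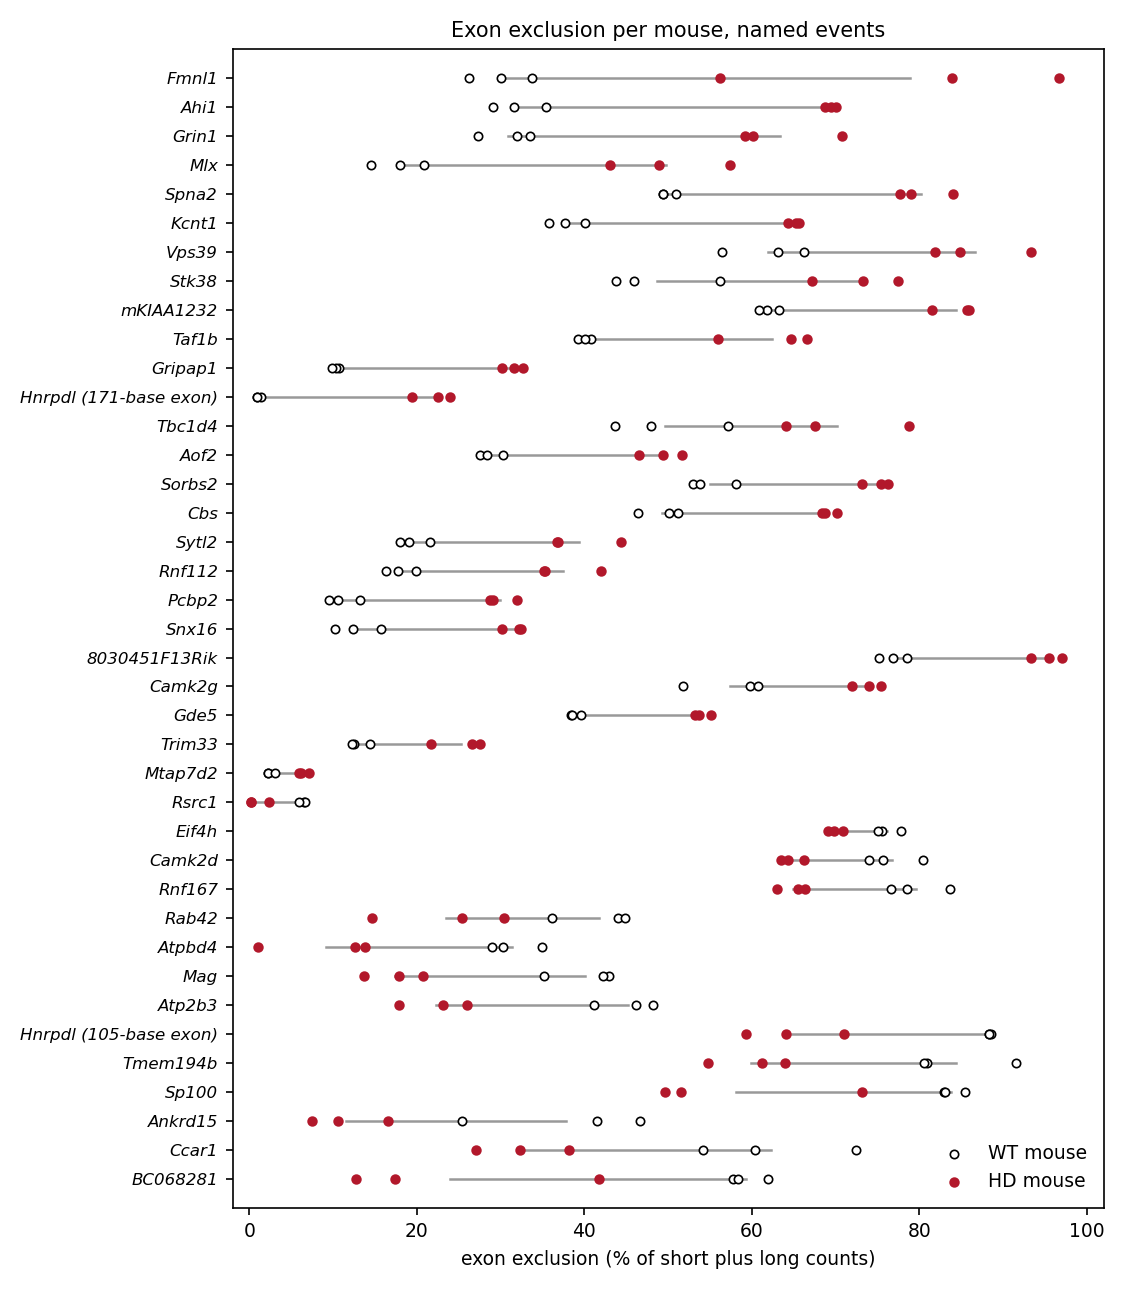
Exon exclusion in % of short plus long counts for named events that passed the test, 1 open circle per WT mouse and 1 red point per HD mouse; grey lines join the group means. Rows run from Fmnl1 (48.9 points higher) to BC068281 (59.3% in WT and 23.9% in HD mice), and most were chosen among events whose groups do not overlap.

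Exons of a gene did not always move together. Of the genes with 2 or more called events, 26 had all of them in the same direction and 11 in both directions. The latter include Rsrc1, Hnrpdl, Nrxn3 and Camk2d, described above, and Ncam1, Ktn1, Sgip1, Cnot2, Fam49b, Mbnl2 and Dnm1l. In the adhesion molecule Ncam1 one exon rose from 10.1 to 16.2% and another fell from 76.8 to 56.0%. In Cnot2, a subunit of the deadenylase complex, the values were 40.7 and 60.6% at one exon and 25.1 and 16.7% at another.

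The level of both junctions together, in counts scaled to 1000000 per library (CPM), is the sum of the counts whose shares give exclusion, so a level and an exclusion are not independent readouts. It was called in 44.4% of events, higher in HD in 29.5% and lower in 14.9%. It was called in 56.2% of events with higher exclusion, 50.8% of those with lower exclusion and 40.2% of those whose exclusion was not called. Centred libraries gave 391 events higher and 307 lower (56.0% higher, in place of 66.5%). A level belongs to the 2 junctions probed and not to the whole gene, and in a bulk sample fewer cells of a type and less RNA per cell cannot be told apart.
By function the lists differed in direction. Splicing and RNA-binding genes had 45 events higher and 6 lower, ubiquitin, chaperone and autophagy genes 29 and 4, and transcription and chromatin genes 52 and 16. Channels, receptors and transporters had 6 higher and 21 lower, and synaptic genes 11 and 20. All 5 kept that balance when centred (32 and 9, 21 and 6, 37 and 16, 3 and 22, 9 and 22). Cytoskeleton genes, with 33 higher and 19 lower, were even when centred (23 and 23). Kinases turned from 26 and 22 to 21 and 28, and small GTPases and their regulators from 14 and 13 to 13 and 17.

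**Figure D5:**
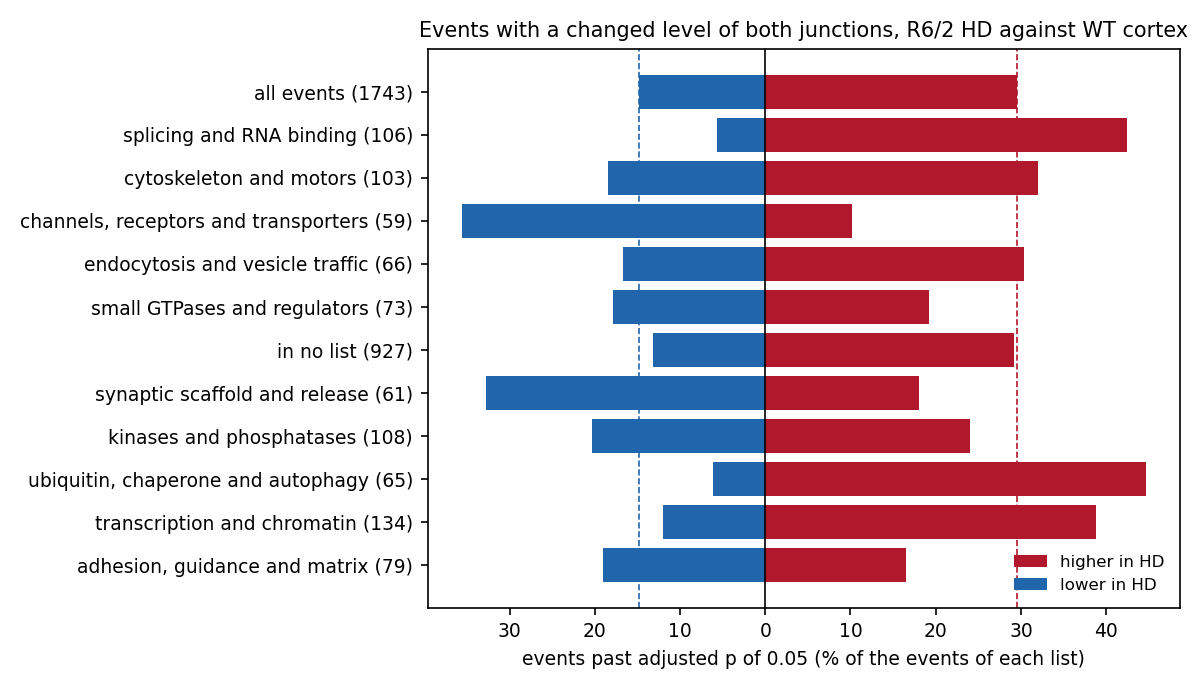
Share of the events of each gene list whose level of both junctions, in CPM, was called higher (red, to the right) or lower (blue, to the left) in HD mice, in % of the events of the list; dashed lines mark the shares over all events. Splicing, ubiquitin and chromatin genes extend to the right and channels (21 of 59 lower) and synaptic genes (20 of 61 lower) to the left.

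Single levels differed severalfold. Rims1, a scaffold of the presynaptic active zone, was at 446, 499.6 and 481 CPM in WT and 91.3, 102 and 102 in HD mice (log2 change of -2.27 ± 0.09) at one event, while its other events changed by -0.92 and -0.74. Camkk2, a kinase that activates other calmodulin-dependent kinases, was at 971, 1099 and 1179 in WT and 296, 354 and 307 in HD mice. The clock-controlled transcription factor Dbp was at 17.0, 24.4 and 27.5 in WT and 5.53, 4.80 and 3.46 in HD mice, on only 15 to 97 counts a mouse. Scube1, a secreted protein, was at 102, 132 and 109 and at 35.8, 35.6 and 27.
All 3 HD mice were far below the WT mice in each. Fam107a, a protein that binds actin, was at 354, 247 and 381 in WT and at 137, 72.3 and 5.07 in HD mice, with a wide spread among the latter. Among the rises, Ocel1 was at 25.3, 34.1 and 32.0 in WT and 121, 135 and 203 in HD mice. The aminopeptidase Rnpep was at 10.4, 13.8 and 11.6 and at 39.5, 39.7 and 34.6, on 30 to 157 counts a mouse. Dnm1l, the dynamin of mitochondrial fission, rose at one event by 1.62 ± 0.15 and at its others by 0.47 and 0.32 on the log2 scale. Ptpro and Prr14 rose by 1.41 ± 0.26 and 1.34 ± 0.26, on 26 to 135 and 13 to 96 counts a mouse. Levels were named without the minimum of 50 counts set for exclusion.

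Markers of the cell types of the cortex gave the following levels. The neuron markers Mtap2 and Syt1, the 2 of 12 that were measured, fell by 0.26 and 0.32 on the log2 scale. Their summed level was 28933 to 33792 CPM in WT and 23337 to 27881 in HD mice, and Syt1 makes up nearly all of it. Mtap2 passed narrowly (adjusted p = 0.0478 by limma), and its groups overlapped. Astrocyte markers were lower by more, in all 3 events of the 2 markers measured of 11 (Ndrg2 and Fgfr3), from 17578 to 18530 in WT to 9037 to 10117 in HD mice. Ndrg2, which makes up nearly all of that sum, changed by -0.93 ± 0.06 (log2). The oligodendrocyte markers Mag and Mbp, 2 of 15, did not pass (adjusted p = 0.201 and 0.0845 by limma), with a summed 10879 to 13272 in WT and 9001 to 13066 in HD mice. The vascular marker Pecam1, 1 of 7, did not pass either, and none of 10 microglial markers was in the panel. No marker event was called higher. The neuron and astrocyte markers fell as most called levels of channel and synaptic genes did, while most called levels of splicing, ubiquitin and chromatin genes rose, and the part of cell makeup in the changes of exclusion was not tested.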

How the data were processed

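Per the file headers, the deposited tables list for every splicing event of a mouse the counts of its short and its long junction, with commas inside large counts, which were removed. Per the study's methods the authors made them by RASL-seq of total RNA from cortex, with ligated probe pairs selected on oligo(dT) beads and counted by sequencing. The aligner and the counting tool are not given in the sources used here. The submitters' processing notes name mm10, but only 44 of the 1743 deposited positions fell on annotated exon ends of GRCm38, and none is printed. Exon positions and sequences come instead from GENCODE release M21 on GRCm38, matched by gene symbol, chromosome and the distance between flanking exons (1377 of 1678 cassettes matched 1 exon, 221 more than 1, 27 none, and the symbol of 53 was absent). Of 1431 symbols 1388 were found in a RefSeq gene table, and the current symbol is given in parentheses where it differs.

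Samples were grouped by genotype as labelled. Replicates are separate mice. The log2 ratio (short + 0.5)/(long + 0.5) of each mouse was tested over all 1743 events with limma 3.58.1 in R 4.3.3, with Benjamini-Hochberg adjustment. The variance trend ran on the mean log2 of short times long over short plus long counts, plus 0.5, which depends mostly on the rarer junction. Levels were tested as log2 CPM with the same prior count and a trend on the mean level. Single junctions were tested likewise where they had a mean of at least 10 counts. In simulated data 200 events were changed, up or down at random and with no shift of the whole panel, so the shares of false calls may differ in the real data. For the exclusion comparison with 1743 events, 13.4%, 62.7% and 95.5% of events changed by 0.5, 1 and 2 (log2) were recovered, and 2.56% of the calls were false. For the level comparison with 1743 events the shares recovered were 74.6%, 95.5% and 100.0%, and 7.22% of the calls were false, above the nominal 5%. Percent-called shares of a list are descriptions. The members and lists were chosen with earlier results of these data known. Named were, per list, the 3 called events with the largest difference of exclusion (at least 5 points, at least 50 counts in every mouse, groups not overlapping), the 5 largest rises, falls and log2 changes over all events, every event of Mag, Mtap7d2, Mlx and the 2 shortest lists, the 5 largest rises and falls of level, and all other events of those genes. Some of the events so named are not reported here. Depth was 2171709 to 4337557 counts a mouse, and 20 events had the counts of another event in every mouse.

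Alternatives were a pseudocount of 1, a mean of at least 50 counts, centring on the median event, quantile normalization of levels, no variance trend, a test against a change of 0.5, a quasi-binomial model, the exclusion percentage itself, and leaving out each mouse. Keeping 1 event of each identical pair was added after seeing the data.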

Additional observations from a re-analysis of the deposited data

How the results depend on the processing

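No paired analysis was possible because the mouse numbers of the groups differ. Calls of exclusion numbered 399 to 443 when a mouse was left out, 321 of the 498 were kept in all 6 of those fits, and no called event changed sign under any alternative run. A test against a log2 change of 0.5 left 160 calls. Centring on the median event kept 415 of the 498 calls and lowered the share of higher calls to 59.3% for exclusion and 56.0% for the level of both junctions. For the short junction, where 74.1% of calls were higher, centring gave 47.3%, a reversal, and quantile normalization 53.3%. For the long junction, where 51.9% were higher, the share was 49.3% without the variance trend and 48.1 to 53.1% when a mouse was left out, so it has no settled direction, and it was below 50% without WT mouse 3 (48.2%), HD mouse 860 (48.1%) or HD mouse 869 (49.8%). The cause was not tested. Of the 53 named events called, 12 lost the call in at least 1 alternative other than the test against 0.5, 5 of them when a mouse was left out, and none reversed. Events with few counts, such as those of Rbfox2, Grik1, Magi1, Dbp and Prr14, have the widest counting error, and without molecular identifiers copies of 1 molecule cannot be told apart from different molecules.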
